A study of Malus domestica with 18 samples.

Results

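The type-A response regulators of apple were described across 3 media and 2 times in shoot explants. They were taken by protein name: genes whose closest Swiss-Prot entry is a type-A response regulator of the Arabidopsis ARR or rice ORR series, with 10 or more counts in 3 or more libraries. Of 42841 genes in the count table, 12 carried such a name and 10 met the count minimum. The other 2, both named ARR17, were DVH24_041768 with 3 counts in all and DVH24_039010 with 0 counts, and they are not described further. All 10 members passed the expression filter that left 26053 genes for testing.

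The explants were 20 mm shoot segments of Malus domestica, cultivar Húsvéti rozmaring, cut from in vitro shoots that had spent their last subculture without cytokinin. The 6 groups, with 3 libraries each, were TDZ at 4 week, BAR at 4 week, control at 4 week, TDZ at 48 hour, BAR at 48 hour and control at 48 hour. TDZ medium held 4.5 µM thidiazuron, a synthetic phenylurea cytokinin. BAR medium held 4.5 µM 6-benzylaminopurine riboside, an adenine-type cytokinin with an attached ribose, and control medium was free of cytokinin. The auxin indole butyric acid, at 0.49 µM, and gibberellic acid, at 0.58 µM, were in all 3 media. The labels call the sampled tissue axillary shoot and the replicates biological, without saying whether these came from separate vessels, so p-values measure the spread between these samples only.

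Cytokinin is sensed by membrane histidine kinases, which pass a phosphate through phosphotransfer proteins to the response regulators. Type-B regulators are transcription factors that switch on cytokinin target genes. The type-A regulators are among the first of those targets: they consist of little more than the phosphate-accepting receiver domain, lack the DNA-binding part, and in Arabidopsis and rice dampen the signal that induced them. Their transcripts are therefore widely used as a readout of cytokinin response in shoots.

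Libraries held 12546489 to 21279097 counts. Levels are CPM, the counts scaled by library size, and FPKM, which also divides by coding length, is used where genes are compared with each other. Chlorophyll-binding and Rubisco small-subunit genes, which mark green shoot tissue, summed to 4877 to 8151 CPM on TDZ, 11210 to 16930 CPM on BAR and 10050 to 25860 CPM on control medium at 4 week, and to 29020 to 51000 CPM over the 3 media at 48 hour. Of these 34 genes 31 were tested and 3 had 0 counts. At 4 week every TDZ library, replicate 3 included, thus lay below every BAR and control library in this sum. The part of green tissue in the results at 4 week was not tested. Replicates of each group differed beyond counting noise (chi-square divided by its degrees of freedom, 7.87 to 268). At 4 week control replicate 1 differed from control replicates 2 and 3, with ratios of 180 and 155. Between control replicates 2 and 3 the ratio was 7.87. The Spearman correlation across genes of control replicate 1 was 0.927 and 0.931 with these 2, which correlated at 0.987 with each other. Control replicate 1 also held the highest green tissue sum of the 4 week controls, 25860 CPM. The library labelled TDZ, 4 week, replicate 3 stood apart: its Spearman correlation across genes was 0.807 and 0.803 with the other 2 libraries of its group, and 0.944 to 0.947 with the 4 week controls. In it 9 of the 10 members lay within the range of those controls and 1 lay below. It is 1 of 4 libraries whose name is that of another library with the letter b added. The other 3 are the third replicates on BAR at either time and on control medium at 48 hour, and the labels do not say what b means. The members' tests that involve TDZ at 4 week are given with and without it, and for other TDZ values of 4 week the 3 libraries are shown. In tissue samples, fewer cells of a type and less RNA per cell cannot be told apart.

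The 10 genes fell into 7 names. There were 2 genes each called ARR3 (DVH24_007079 and DVH24_040788), ARR17 (DVH24_024436 and DVH24_022837) and ORR4 (DVH24_006913 and DVH24_042790), and ARR6 (DVH24_008781), ARR9 (DVH24_019719), ORR9 (DVH24_015948) and ORR10 (DVH24_004874) stood alone. All 10 carried the receiver domain in the deposited annotation, and in 9 it was the only Pfam entry, with coding lengths of 459 to 1026 bases. ORR9 had a coding length of 2568 bases and 4 Pfam entries, among them the BRX domain and a pleckstrin homology domain, so its reads may come from more than a response regulator. A name gives the closest known protein, and reads that fit close copies equally could be split between them.

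Both ARR3 genes and ARR6 were the most abundant members. Over all libraries ARR3 DVH24_007079 averaged 63.88 FPKM, ARR3 DVH24_040788 averaged 58.97 FPKM and ARR6 averaged 46.34 FPKM. ARR9 followed at 24.29 FPKM and ARR17 DVH24_024436 at 22.23 FPKM, and the other 5 members lay between 1.60 and 9.80 FPKM. The counts behind the members ranged from 244 for ARR17 DVH24_022837 to 20210 for ARR3 DVH24_007079 over 18 libraries.

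**Figure D1:**
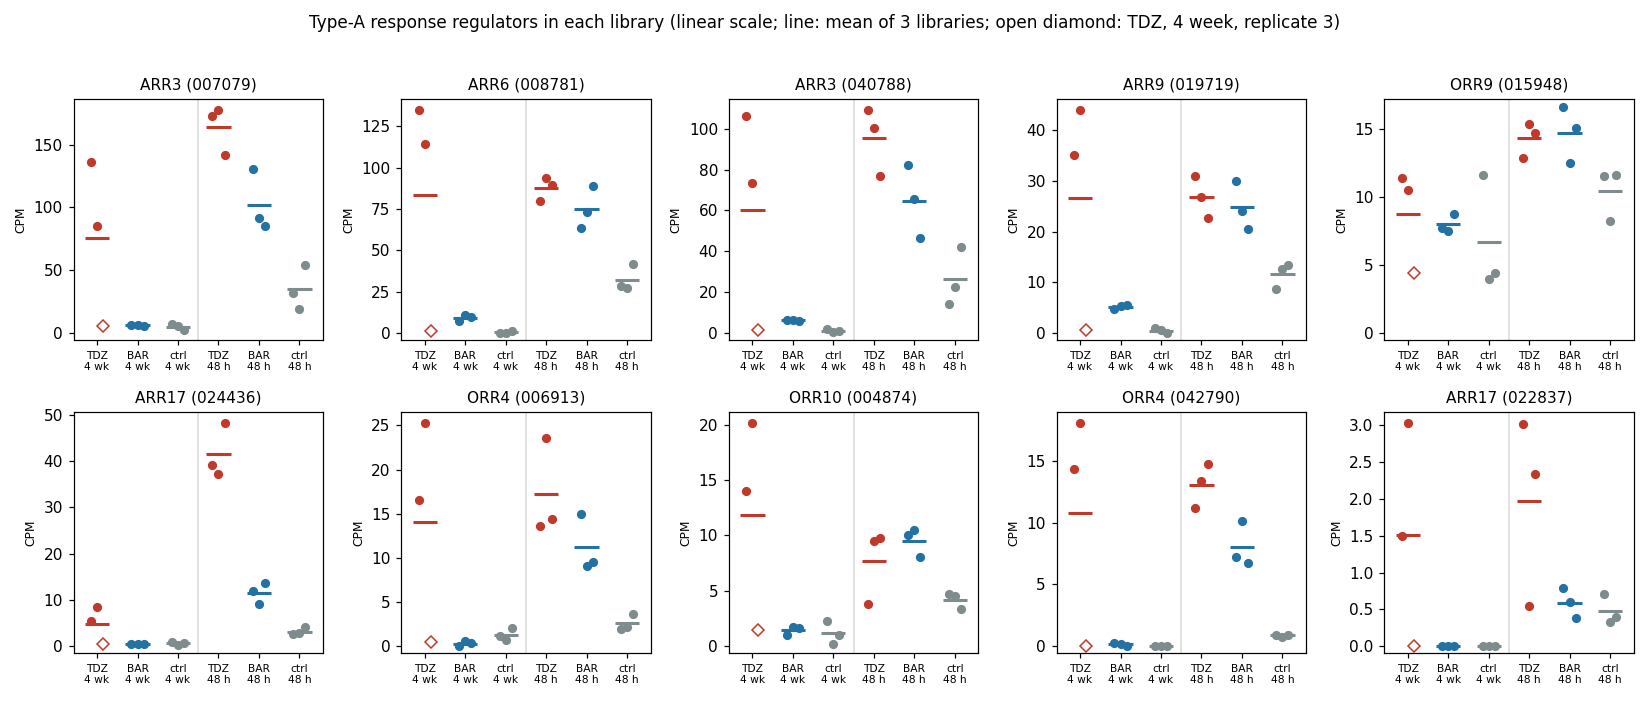
CPM of each of the 10 type-A regulators in each library, on linear axes, by medium and time. Points are libraries, lines are means of 3 libraries, and the open diamond is the library labelled TDZ, 4 week, replicate 3, which lies at 15.7 CPM summed over the family, against 476 and 403 CPM in the other 2 libraries of that group.

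After 48 hour all 10 type-A regulators had a higher mean level on TDZ than on control medium. Summed over the family, the level was 470 ± 32 CPM on TDZ, 323 ± 39 CPM on BAR and 127 ± 42 CPM on control medium (SD, n = 3 each). The TDZ libraries lay between 434.9 and 498.5 CPM, the BAR libraries between 294.7 and 367.8 CPM and the controls between 100.9 and 175.4 CPM, so the 3 media did not overlap. By member, the TDZ libraries all lay above the controls for 8 of 10 genes, while 6.67% of all genes tested did so. On BAR the same held for 9 of 10 members, and for 5.68% of all genes tested.

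Both ORR4 genes and ARR17 DVH24_024436 had the highest ratios of the 10. In rice, ORR4 is a cytokinin-induced type-A regulator. ORR4 DVH24_042790 had 11.2, 13.3 and 14.7 CPM on TDZ, 7.18, 10.1 and 6.76 CPM on BAR, and 0.903, 0.792 and 0.94 CPM on control medium. No library of either cytokinin reached down to the controls, which differed little from each other. ORR4 DVH24_006913 had 13.7, 23.6 and 14.4 CPM on TDZ, 15, 9.06 and 9.54 CPM on BAR, and 1.93, 2.24 and 3.62 CPM on control medium. Here TDZ and BAR overlapped with each other and both lay above the controls.

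In poplars a relative of ARR17 determines sex. ARR17 DVH24_024436 had 39.1, 37.3 and 48.2 CPM on TDZ, 12.0, 9.06 and 13.8 CPM on BAR, and 2.64, 2.84 and 4.09 CPM on control medium. The 3 media formed 3 separate levels, with TDZ the highest. ARR17 DVH24_022837 was near the limit of detection, at 3.01, 0.55 and 2.34 CPM on TDZ, 0.792, 0.604 and 0.379 CPM on BAR, and 0.709, 0.33 and 0.403 CPM on control medium, and its groups overlapped.

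The abundant members had smaller ratios on higher control levels. ARR3, which in Arabidopsis also affects the period of the circadian clock, had 173, 178 and 142 CPM on TDZ for DVH24_007079, 130.4, 91.2 and 85.0 CPM on BAR, and 32.0, 19.6 and 54.3 CPM on control medium. The groups did not overlap, although the controls spread widely. ARR3 DVH24_040788 had 109, 100.5 and 76.8 CPM on TDZ, 82.3, 65.4 and 46.6 CPM on BAR, and 14.3, 22.4 and 42.1 CPM on control medium. ARR6, which the meristem factor WUSCHEL represses in Arabidopsis, had 79.8, 94.04 and 89.8 CPM on TDZ, 63.6, 73.1 and 88.9 CPM on BAR, and 28.2, 27.2 and 41.6 CPM on control medium. For the second ARR3 gene and for ARR6 the 2 cytokinin media overlapped and both lay above control medium.

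ARR9, ORR10 and ORR9 had smaller ratios of TDZ to control. ARR9 had 30.9, 26.8 and 22.7 CPM on TDZ, 30.0, 23.99 and 20.6 CPM on BAR, and 8.64, 12.7 and 13.4 CPM on control medium, without overlap between either cytokinin and control. ORR10, whose rice counterpart is a negative regulator of cytokinin response, had 3.78, 9.53 and 9.75 CPM on TDZ, 10.04, 10.5 and 8.02 CPM on BAR, and 4.71, 4.56 and 3.36 CPM on control medium. One TDZ library of ORR10 fell among the controls. ORR9 ranged from 12.9 to 15.4 CPM on TDZ, from 12.52 to 16.6 CPM on BAR and from 8.25 to 11.6 CPM on control medium, and had the smallest ratio of TDZ to control.

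In the fit of all 18 libraries (edgeR quasi-likelihood test, Benjamini-Hochberg adjustment over 26053 genes) 0 members passed at 48 hour for TDZ against control, BAR against control or TDZ against BAR, where 0%, 0% and 0% of all genes were called higher. At an unadjusted p under 0.05 there were 5 members for TDZ, 4 for BAR and 1 for TDZ against BAR, and 1439, 693 and 1970 genes in all. DESeq2 called 2, 0 and 0 members. The median log2 fold change over the members was 1.94 for TDZ and 1.26 for BAR, against 0.01 and 0.00 over all genes tested. The common dispersion, the squared coefficient of variation between replicates, was 0.185 over all libraries and 0.116 over those of 48 hour.

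Fitted with the 9 libraries of 48 hour alone, 6 of 10 members were called higher on TDZ than on control medium, where 0.17% of 24650 genes were. They were ORR4 DVH24_042790 (log2 fold change 3.88, SE 0.35, adjusted p = 0.0004 by edgeR), ARR17 DVH24_024436 (3.69, SE 0.27, adjusted p = 0.00013), ORR4 DVH24_006913 (2.72, SE 0.36, adjusted p = 0.01), both ARR3 genes and ARR6. ARR3 DVH24_007079 rose by 2.21 (SE 0.32), ARR3 DVH24_040788 by 1.85 (SE 0.35, adjusted p = 0.04999, at the threshold) and ARR6 by 1.43 (SE 0.21). On BAR 2 of 10 were called higher than on control medium, where 0.0162% of genes were: ORR4 DVH24_042790 (3.19, SE 0.34, adjusted p = 0.011) and ARR17 DVH24_024436 (1.86, SE 0.26, adjusted p = 0.035). With the library labelled TDZ, 4 week, replicate 3 dropped, the fit gave 3, 1 and 1 members for TDZ against control, BAR against control and TDZ against BAR at 48 hour, where 0.0451%, 0.00375% and 0.00375% of 26635 genes were called higher.

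**Figure D2:**
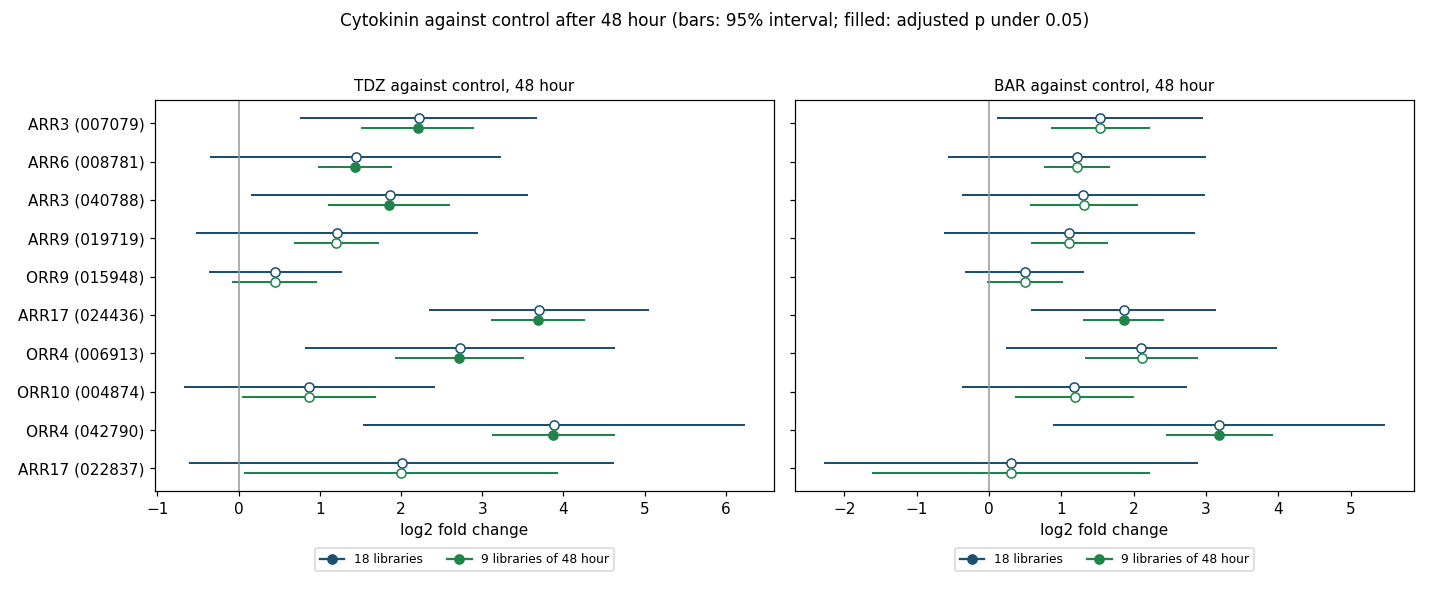
Log2 fold change of each member on TDZ and on BAR against control medium after 48 hour, from the fit of all 18 libraries and from the 9 libraries of 48 hour. Bars are 95% intervals and filled points have an adjusted p under 0.05: 6 for TDZ and 2 for BAR with the 48 hour libraries, 0 with all 18.

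TDZ and BAR were compared at the same concentration. At 48 hour they differed for 1 member in the fit of the 48 hour libraries alone, and for 0 in the fit of all 18 libraries. ARR17 DVH24_024436 stood at 41.5 ± 5.8 CPM on TDZ and 11.6 ± 2.4 CPM on BAR (SD, n = 3 each), a log2 fold change of 1.83 (95% interval 1.302 to 2.356, adjusted p = 0.032 by edgeR with the 48 hour libraries). In that fit 0.0284% of all genes were called higher on TDZ than on BAR. With all 18 libraries the same difference was 1.84 with an adjusted p of 0.47.

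For 3 of 10 members the TDZ libraries all lay above the BAR libraries, as they did for 6.56% of all genes tested. These were ARR17 DVH24_024436, ARR3 DVH24_007079 and ORR4 DVH24_042790. With the 48 hour libraries, the interval for TDZ over BAR ran from 0.00 to 1.33 for ARR3 DVH24_007079 and from 0.05 to 1.33 for ORR4 DVH24_042790 on the log2 scale, and neither passed after adjustment. For ARR6 it ran from -0.23 to 0.66, for ARR9 from -0.42 to 0.61 and for ORR9 from -0.57 to 0.47, so a log2 difference of 1 lay outside the interval for these 3 genes. For ORR10 it ran from -1.12 to 0.49 and for ARR17 DVH24_022837 from -0.20 to 3.58.

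After 4 week the type-A regulators were high on TDZ in 2 of its 3 libraries and low elsewhere. The family sum was 476, 403 and 15.7 CPM in the TDZ libraries, 37.5 ± 2.2 CPM on BAR and 17.5 ± 8.1 CPM on control medium (SD, n = 3 each). Beside these, the TDZ libraries of 48 hour lay between 434.9 and 498.5 CPM, and the library labelled replicate 3 lay within the range of the controls.

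ARR6 had 135, 114 and 1.03 CPM on TDZ, 7.34, 10.7 and 9.89 CPM on BAR, and 0.382, 0.182 and 1.11 CPM on control medium. The BAR libraries all lay above the controls, and the third TDZ library lay among the controls. ARR9 had 35.2, 43.9 and 0.644 CPM on TDZ, 4.78, 5.28 and 5.53 CPM on BAR, and 0.928, 0.606 and 0 CPM on control medium, in the same order as ARR6. ARR3 DVH24_040788 had 106, 73.5 and 1.61 CPM on TDZ, 6.59, 6.28 and 5.75 CPM on BAR, and 2.24, 0.727 and 0.954 CPM on control medium. ARR3 DVH24_007079 had 136, 85.4 and 5.54 CPM on TDZ, 6.76, 6.22 and 6.02 CPM on BAR, and 7.26, 5.70 and 2.78 CPM on control medium. Its BAR and control libraries overlapped, unlike those of the other ARR3 gene.

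ORR4 DVH24_042790 had few or no counts on BAR and control medium: its values were 14.3, 18.02 and 0 CPM on TDZ, 0.233, 0.167 and 0.0537 CPM on BAR, and 0 counts in each control library. ORR4 DVH24_006913 had 16.5, 25.2 and 0.515 CPM on TDZ, 0, 0.555 and 0.376 CPM on BAR, and 1.15, 0.667 and 2.07 CPM on control medium. Its BAR libraries all lay below the controls, and it is the only member of the 10 for which that was so. ARR17 DVH24_024436 had 5.56, 8.53 and 0.451 CPM on TDZ, 0.525, 0.50 and 0.537 CPM on BAR, and 0.928, 0.364 and 0.795 CPM on control medium. ARR17 DVH24_022837 had 1.49, 3.02 and 0 CPM on TDZ and 0 counts in every BAR and control library. In both ARR17 genes, TDZ replicates 1 and 2 lay above every BAR and control library of 4 week. ORR10 had 14.0, 20.1 and 1.48 CPM on TDZ, 1.05, 1.72 and 1.67 CPM on BAR, and 2.29, 0.182 and 1.03 CPM on control medium. ORR9 ranged from 4.44 to 11.4 CPM on TDZ, from 7.50 to 8.76 CPM on BAR and from 4.00 to 11.6 CPM on control medium, which overlapped.

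In the fit of all 18 libraries 9 of 10 members were called higher on TDZ than on control medium at 4 week, where 16.8% of all genes were called higher and 9.72% lower. ORR9 was the exception (log2 fold change 0.39, SE 0.39, adjusted p = 0.49 by edgeR). Against groups with counts, the changes ran from 2.80 (SE 0.66) for ARR17 DVH24_024436 to 7.29 (SE 1.16) for ARR6. For ORR4 DVH24_042790 and ARR17 DVH24_022837 the control group held 0 counts, and against 3 counts over that group they were at least 170-fold and 23.8-fold higher. The median log2 change over the 10 members was 4.67, or 4.21 with those 2 genes at their bounds, and 0.14 over all genes tested. Without the library labelled replicate 3, 9 members were again called higher, where 23% of all genes were, and ARR6 differed by 7.88 (SE 0.43). Without control replicate 1 of 4 week all 10 were called, ORR9 included, but no share of all genes is given beside this count. With the 9 libraries of 4 week alone, 8 members could be tested and 3 were called, both ARR3 genes and ARR6, where 3.67% of 24771 genes were called higher. The common dispersion of the 4 week libraries was 0.225, and 0.118 without the library labelled replicate 3. With that library included, the TDZ libraries all lay above the controls for 0 of 10 members, and for 3635 of 26053 genes tested.

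BAR against control at 4 week gave 2 members called higher in the fit of all libraries, where 17.2% of all genes were called higher and 12.7% lower. They were ARR6, higher by 4.12 on the log2 scale (SE 1.06, adjusted p = 0.0099 by edgeR), and ARR9, with 3.25 (SE 0.97, adjusted p = 0.021). Without control replicate 2 or 3 of 4 week 1 member was called, ARR6, and with the 9 libraries of 4 week alone 0, with 2 at an unadjusted p under 0.05, where 9.4% of genes were called higher. With the library labelled TDZ, 4 week, replicate 3 left out, 4 members were called higher, where 21.1% of genes were, and 1 lower, where 15.5% were. ARR3 DVH24_040788 joined with 2.21 (SE 0.43, adjusted p = 0.00078) and ORR4 DVH24_042790 with an adjusted p of 0.0069, against a control group at 0 counts. The call of ORR4 DVH24_042790 rested on 4, 3 and 1 counts in the BAR libraries. Against 3 counts over the control group it was at least 2.39-fold higher. ORR4 DVH24_006913 fell by 1.99 (SE 0.65, adjusted p = 0.024), against an adjusted p of 0.15 with all 18 libraries. The BAR libraries all lay above the controls for 4 of 10 members and all below for 1, shares that 30.3% and 19.9% of all genes tested also showed.

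TDZ against BAR at 4 week gave 8 of 10 members called higher on TDZ, where 4.42% of all genes were called higher and 3.98% lower. The log2 fold changes of the 7 called genes with counts on BAR ran from 3.00 (SE 0.79) for ORR10 to 6.11 (SE 1.28) for ORR4 DVH24_042790, and ARR17 DVH24_022837 was at least 27-fold higher. ARR9 differed by 2.36 (95% interval 0.55 to 4.16, adjusted p = 0.099 by edgeR) and ORR9 by 0.14 (95% interval -0.68 to 0.96). Without the library labelled TDZ, 4 week, replicate 3, 9 members were called higher, where 8.47% of genes were, ARR9 among them at 2.92 (SE 0.42). The count rested on the other libraries too: it was 0 without BAR replicate 1, 4 without BAR replicate 2, 1 without BAR replicate 3, 4 without TDZ replicate 1 or 2, and 0 with the 9 libraries of 4 week alone, with 6 at an unadjusted p under 0.05, where 0.25% of genes were called higher. With 8 libraries of 4 week, leaving out the library labelled TDZ replicate 3, it was 9, where 6.88% of genes were. With that library included, the TDZ libraries all lay above the BAR libraries for 0 of 10 members, and for 2589 of 26053 genes tested.

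**Figure D3:**
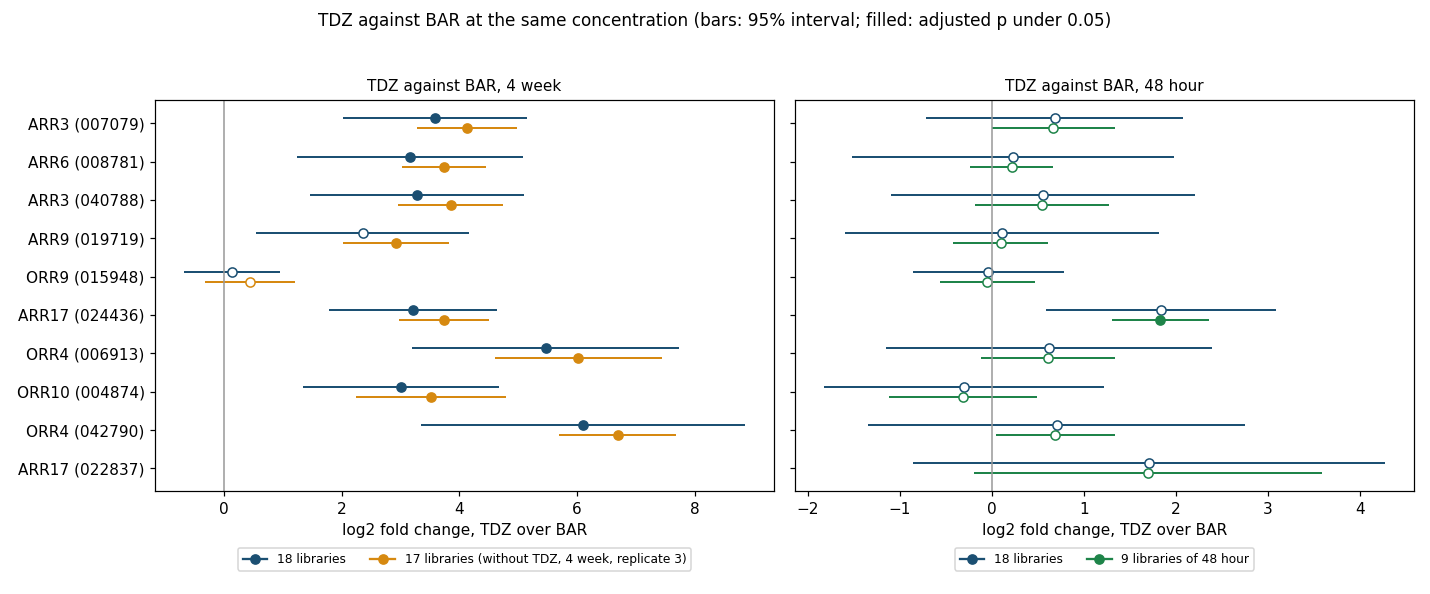
Log2 fold change of TDZ over BAR, both at 4.5 µM, for each member at 4 week and at 48 hour, with 95% intervals and filled points for an adjusted p under 0.05. At 4 week 9 members are drawn, since ARR17 DVH24_022837 had 0 counts on BAR; ARR17 DVH24_024436 is the member called at 48 hour, at 1.83 with the 48 hour libraries.

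The 2 times were compared on each medium. On TDZ 1 of 10 members was called lower at 4 week than at 48 hour, where 9.05% of all genes were. It was ARR17 DVH24_024436, at 5.56, 8.53 and 0.451 CPM at 4 week and 41.5 ± 5.8 CPM at 48 hour (SD, n = 3), or -3.09 on the log2 scale (SE 0.62, adjusted p = 0.0034 by edgeR). With replicate 3 left out the change was -2.56 (SE 0.35), with 5.56 and 8.53 CPM at 4 week. The remaining 9 had adjusted p-values of 0.21 or more, and without that library 6 of the 10 had a positive change. Of ARR6 the interval without it ran from -0.17 to 1.18 and of ORR4 DVH24_042790 from -0.46 to 1.07. The 4 week libraries on TDZ all lay below those of 48 hour for 3 of 10 members, as for 18.5% of all genes tested.

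On BAR 8 of 10 members were called lower at 4 week than at 48 hour, where 11.2% of all genes were. ARR17 DVH24_024436 fell by 4.46 (SE 0.70) and ORR4 DVH24_006913 fell by 5.13 (SE 1.06) on the log2 scale, while ARR9 (-2.26, SE 0.85, adjusted p = 0.069 by edgeR) and ORR9 (-0.88, SE 0.39, adjusted p = 0.12) did not pass. The 4 week libraries all lay below the 48 hour libraries for 10 of 10 members, which 24.1% of all genes tested also did. The count was 5 without BAR replicate 1 or 2 of 48 hour, or without any 1 of the 3 BAR libraries of 4 week. It was 9, ARR9 included, without the library labelled TDZ, 4 week, replicate 3, where 15.6% of genes were called lower.

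On control medium 7 of 10 members were called lower at 4 week than at 48 hour, where 21% of all genes were. Among members with counts at both times, ARR6 had the most negative log2 fold change, -5.92 (SE 1.11, adjusted p = 0.0013 by edgeR), at 0.559 ± 0.490 CPM at 4 week and 32.3 ± 8.0 CPM at 48 hour (SD, n = 3 each). ORR4 DVH24_042790 and ARR17 DVH24_022837, with 0 counts at 4 week, were at least 13.9-fold and 7.6-fold lower. ORR10 (-1.83, SE 0.77), ORR4 DVH24_006913 (-1.02, SE 0.90) and ORR9 (-0.64, SE 0.39) did not pass. The libraries of 4 week all lay below those of 48 hour for 8 of 10 members, against 27.6% of all genes tested. Without control replicate 2 of 4 week the count was 4. It was 8, ORR10 included, without the library labelled TDZ, 4 week, replicate 3, where 23.2% of genes were called lower.

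Beside these changes over time, the summed level of 9 mitotic cyclin and kinase genes, which mark dividing cells and of which 8 were detected, was 120 to 177 CPM on TDZ, 76.3 to 92.1 CPM on BAR and 92.4 to 117 CPM on control medium at 4 week. At 48 hour it was 185 to 260 CPM over the 3 media. The summed level of the 20 shoot meristem genes, of which 9 to 18 were detected by group, was 158 and 160 CPM in TDZ replicates 1 and 2 of 4 week and 18.1 CPM in the library labelled replicate 3. It was 64.3 to 86.0 CPM on BAR and 19.3 to 49.2 CPM on control medium at that time, and 71.6 to 213 CPM at 48 hour. Of the 5 root genes, SHORT-ROOT, which is also active outside roots, was the only one tested, and their sum was at most 12.7 CPM in any library. The part of these cells in the results was not tested.

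The difference between the TDZ effect at 4 week and that at 48 hour was tested for each member. With all 18 libraries 2 of 10 were called, both higher at 4 week, where 5.44% of all genes were. For ARR6 the effect was larger by 5.84 (SE 1.36, adjusted p = 0.027 by edgeR), with 7.29 at 4 week and 1.44 at 48 hour. For ARR9 it was larger by 4.39 (SE 1.26, adjusted p = 0.046), with 5.61 at 4 week and 1.21 at 48 hour. Without the library labelled TDZ, 4 week, replicate 3, 7 members were called, where 15.9% of genes were, and the differences were 6.44 (SE 0.50) for ARR6 and 4.95 (SE 0.62) for ARR9. ARR17 DVH24_024436 (-0.37, SE 0.48), ORR4 DVH24_006913 (1.305, SE 0.77) and ORR9 (0.25, SE 0.49) were not called there. The count was 0 or 1 when any other library was left out, except that it was 4 without control replicate 1 of 4 week.

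For the BAR effect edgeR called 0 members from the 18 libraries. There were 3 at an unadjusted p under 0.05, as were 7712 of all 26053 genes, and DESeq2 called 1. When the library labelled TDZ, 4 week, replicate 3 was left out, the BAR effect was larger at 4 week for 2 members, where 12.9% of genes were called higher, and smaller for 2, where 9.07% were called lower. It was larger for ARR6 (2.92, SE 0.49, adjusted p = 0.00066 by edgeR) and ARR9 (2.13, SE 0.60, adjusted p = 0.019). It was smaller for ARR17 DVH24_024436 (-2.27, SE 0.49, adjusted p = 0.0037) and ORR4 DVH24_006913 (-4.10, SE 0.83, adjusted p = 0.0027). TDZ and BAR share their control libraries, so their effects are not independent of each other.

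Over the 18 libraries the log2 CPM of genes of the same name correlated at 0.956 for ARR3, 0.887 for ORR4 and 0.874 for ARR17. Their shares in the pair still varied between libraries. ARR3 DVH24_040788 held 52.3%, 54.8% and 29.1% of the summed FPKM of the ARR3 pair in the TDZ libraries, 58.0 ± 0.7% on BAR and 26.0 ± 9.4% on control medium at 4 week (SD, n = 3 each). The BAR libraries held 57.9%, 58.7% and 57.4%, all above the control libraries at 30.3%, 15.2% and 32.6%. At 48 hour the share was 44.9 ± 2.0% on TDZ, 47.0 ± 3.3% on BAR and 50.8 ± 11.6% on control medium, with overlap. BAR against control at 4 week gave p = 0.1 for this share in a two-sided exact permutation test, which is the smallest p that 3 libraries against 3 can give. The same p came for TDZ against BAR at 4 week, and for 4 week against 48 hour on BAR and on control medium. In the 4 week controls DVH24_040788 had only 41, 12 and 12 counts. In the ORR4 pair DVH24_042790 held 45.2 ± 7.3% on TDZ, 43.5 ± 10.3% on BAR and 27.2 ± 5.8% on control medium at 48 hour, and the exact permutation test again gave p = 0.1 for either cytokinin against control. At 4 week it held 0% on control medium, and on BAR the pair had too few counts for a share to carry weight, between 13.1% and 100%. In the ARR17 pair DVH24_022837 held 4.33 ± 2.80% on TDZ, 4.95 ± 2.01% on BAR and 13.3 ± 6.6% on control medium at 48 hour. Either cytokinin against control again gave p = 0.1 in the exact permutation test. These shares rest on 85, 32 and 22 counts of DVH24_022837 over the 3 libraries of each group.

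**Figure D4:**
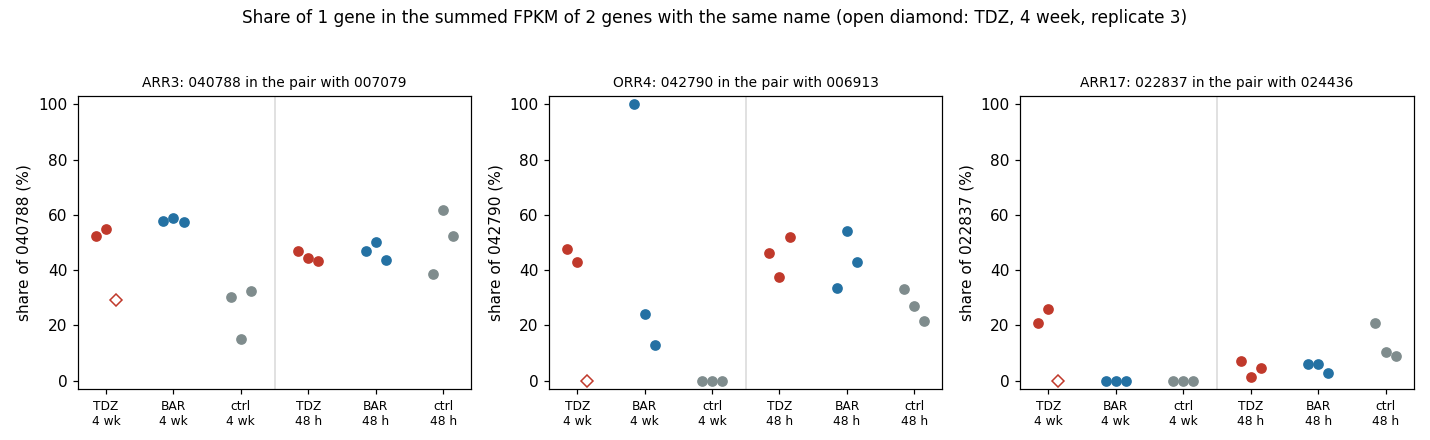
Share of 1 gene in the summed FPKM of the 2 genes that carry the same name, in percent, in each library, for ARR3, ORR4 and ARR17. Points are libraries and the open diamond is the library labelled TDZ, 4 week, replicate 3; for ARR3 at 4 week the BAR libraries lie at 57.4% to 58.7% and the controls at 15.2% to 32.6%.

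The make-up of the family by medium is given as a description. Both ARR3 genes and ARR6 together held 75.5%, 62.1% and 57.3% of the family's summed FPKM in the TDZ libraries, 61.6 ± 1.9% on BAR and 49.0 ± 10.7% on control medium at 4 week. At 48 hour they held 66.4 ± 3.6%, 70.8 ± 0.7% and 70.6 ± 5.8% on TDZ, BAR and control medium (SD, n = 3 each). ARR6 made up 23.8%, 23.1% and 6.54% in the TDZ libraries, 23.0 ± 3.1% on BAR and 3.87 ± 3.97% on control medium at 4 week, and 22.2 ± 1.8% on control medium at 48 hour. ARR9 made up 20.5 ± 0.8% on BAR and 4.78 ± 4.29% on control medium at 4 week. ORR9 made up 15.5 ± 3.2% of the low family total on control medium at 4 week, and 2.96 ± 0.84% at 48 hour. ARR17 DVH24_024436 made up 15.8 ± 3.2% on TDZ, 6.81 ± 1.80% on BAR and 4.90 ± 0.40% on control medium at 48 hour. Shares sum to a whole, so a fall of one member raises the others.

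**Figure D5:**
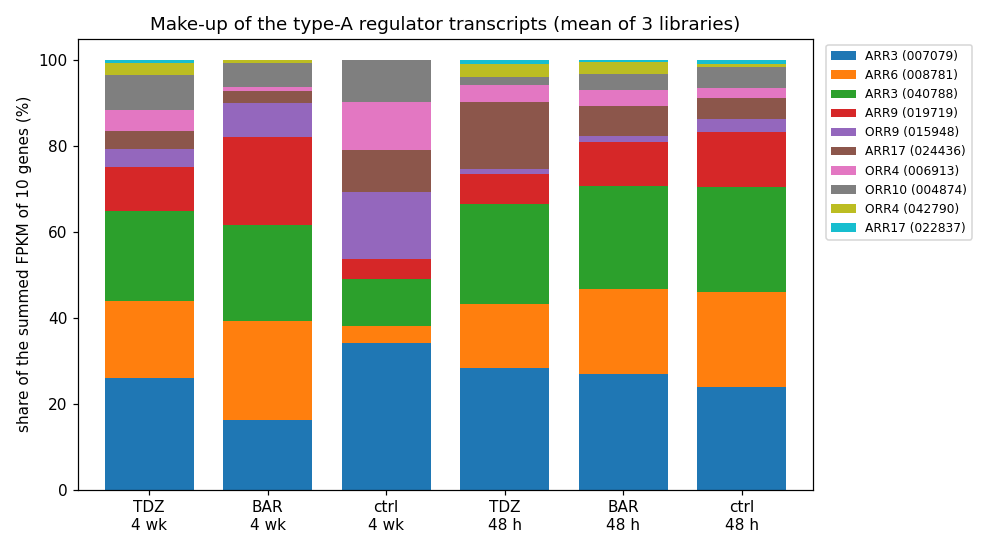
Mean share of each member in the summed FPKM of the 10 type-A regulators, in percent, by group (3 libraries each, the library labelled TDZ, 4 week, replicate 3 included). ARR6 holds 3.87% on control medium at 4 week against 22.2% at 48 hour, and ARR17 DVH24_024436 holds 15.8% on TDZ at 48 hour.

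Levels of the 6 groups were ordered for each gene. With all libraries TDZ at 48 hour had the highest mean for 8 members, with ORR9 (BAR at 48 hour) and ORR10 (TDZ at 4 week) as the exceptions. That count rested on the library labelled TDZ, 4 week, replicate 3: without it TDZ at 48 hour was highest for 3 members, both ARR3 genes and ARR17 DVH24_024436, and TDZ at 4 week for 6. ARR6 then averaged 124.6 CPM on TDZ at 4 week and 87.9 CPM on TDZ at 48 hour. Control at 4 week had the lowest mean for 7, and BAR and control at 4 week were both at 0 for ARR17 DVH24_022837. BAR at 4 week was lowest for ARR17 DVH24_024436 and ORR4 DVH24_006913. For ARR6, ARR9, ARR3 DVH24_040788 and ORR4 DVH24_042790 the 3 lowest groups were separate from each other, in the order control at 48 hour, BAR at 4 week and control at 4 week. As a description over the 18 libraries, which share medium and time, each member's log2 CPM correlated with the mean of the other 9 at 0.83 for ORR9 to 0.98 for ARR3 DVH24_040788. Within the 9 libraries of 48 hour these values ran from 0.53 for ARR17 DVH24_022837 to 0.97 for ORR4 DVH24_006913.

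Other steps of the cytokinin pathway were counted from lists of protein names. At 4 week TDZ against control called 3 higher and 1 lower of 6 receptor genes, 2 higher and 1 lower of 4 tested phosphotransfer genes, 1 higher and 0 lower of 10 type-B regulators, 3 higher and 1 lower of 9 cytokinin dehydrogenases, and 0 of 4 cytokinin response factors, where 16.8% of all genes were called higher and 9.72% lower. BAR against control called 2 higher of 6 receptors, 1 lower of 4 phosphotransfer genes, 3 higher and 1 lower of 10 type-B regulators, 3 lower of 9 dehydrogenases and 0 of 4 response factors, where 17.2% of all genes were called higher and 12.7% lower. TDZ against BAR called 2 receptors, 2 phosphotransfer genes and 5 dehydrogenases higher and 1 type-B regulator lower, where 4.42% of all genes were called higher and 3.98% lower. At 48 hour 0 genes of these lists were called in the fit of all libraries. With the 48 hour libraries alone, TDZ called 2 receptors, 1 phosphotransfer gene and 2 dehydrogenases higher than control, and BAR 1 dehydrogenase, where 0.17% and 0.0162% of all genes were called higher. Without the library labelled TDZ, 4 week, replicate 3, TDZ against control at 4 week called 3 higher and 0 lower of the receptors, 2 and 2 of the phosphotransfer genes, 2 and 1 of the type-B regulators, 4 and 2 of 10 dehydrogenases, and 0 and 1 of the response factors, where 23% of genes were called higher and 17.9% lower. For BAR against control it then called 4 receptors higher, 1 phosphotransfer gene higher and 1 lower, 3 type-B regulators higher and 1 lower, 3 dehydrogenases lower and 1 response factor lower, where 21.1% of genes were called higher and 15.5% lower. TDZ against BAR then gave the counts of the 18 libraries again, where 8.47% of genes were called higher and 6.97% lower. The 2 type-C regulators in the table had too few counts to be tested.

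The most abundant members of these lists differed in how far they went with the type-A genes. The dehydrogenases, which degrade cytokinin, had the widest range: Cytokinin dehydrogenase 3 (DVH24_029452) stood at 306 ± 122 CPM on TDZ, 32.9 ± 10.8 CPM on BAR and 1.99 ± 1.60 CPM on control medium at 48 hour. At 4 week it stood at 211.7, 182.1 and 0.0644 CPM in the TDZ libraries, 0.0732 ± 0.0816 CPM on BAR and 0 CPM on control medium. Cytokinin dehydrogenase 5 (DVH24_012939) stood at 155 ± 25 CPM on TDZ, 36.6 ± 5.7 CPM on BAR and 7.92 ± 4.41 CPM on control medium at 48 hour, and at 4 week at 20.58, 11.01 and 0.258 CPM in the TDZ libraries, 0.320 ± 0.131 CPM on BAR and 0.181 ± 0.160 CPM on control medium. Histidine-containing phosphotransfer protein 1 DVH24_015255, a phosphate carrier, was called higher on TDZ than on control medium at 4 week (210.9, 194.3 and 3.28 CPM in the TDZ libraries and 2.85 ± 1.67 CPM on control medium, log2 fold change 5.56, SE 1.09, adjusted p = 0.0035 by edgeR, and 6.13, SE 0.67, adjusted p = 3.25e-06 without replicate 3). Its namesake DVH24_002767 stood at 30.76, 27.43 and 67.94 CPM in the TDZ libraries and 51.1 ± 17.6 CPM on control medium, with an adjusted p of 0.55, and of 0.029 for a log2 fold change of -0.81 without replicate 3.

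The 2 most abundant receptor genes were both named Histidine kinase 3. DVH24_025102 was at 243.9, 217.5 and 180.7 CPM in the TDZ libraries and 303.5 ± 8.2 CPM on control medium at 4 week (log2 fold change -0.50, SE 0.17, adjusted p = 0.037 by edgeR, and 0.085 without the library labelled replicate 3). DVH24_041062 was at 193.4, 184.5 and 183.4 CPM in the TDZ libraries and 207 ± 41 CPM on control medium (-0.15, SE 0.18). Of the type-B regulators, ARR1 (DVH24_025434), a transcription factor of the cytokinin response in Arabidopsis, was at 94.05, 106.2 and 56.22 CPM in the TDZ libraries, 213.5 ± 45.4 CPM on BAR and 50.1 ± 5.1 CPM on control medium at 4 week. It rose by 2.09 (SE 0.30, adjusted p = 0.00051) on BAR against control, and the log2 difference of TDZ from BAR was -1.32 (SE 0.30, adjusted p = 0.016), and -1.09 (SE 0.30, adjusted p = 0.020) without replicate 3. TDZ against control was 0.77 with an adjusted p of 0.064, and 1.00 with an adjusted p of 0.011 without replicate 3. The second, ORR21 (DVH24_007612), was at 129.2, 101 and 89.58 CPM in the TDZ libraries and 122 ± 6 CPM on control medium at 4 week. The response factors CRF2 (DVH24_008193), at 13.03, 10.67 and 1.35 CPM in the TDZ libraries and 5.96 ± 4.43 CPM on control medium at 4 week, and CRF4 (DVH24_024859), at 3.85, 6.22 and 2.51 CPM in the TDZ libraries and 8.14 ± 2.21 CPM on control medium, were not called for TDZ against control at 4 week. CRF2 stood at 51.3 ± 16.2 CPM on TDZ, 40.0 ± 5.9 CPM on BAR and 20.4 ± 7.1 CPM on control medium at 48 hour. It was called lower at 4 week on TDZ (-2.61, adjusted p = 0.0095 by edgeR, and -2.11, adjusted p = 0.0087 without replicate 3). The same held on BAR (-2.53, adjusted p = 0.0105) and on control medium (-1.77, adjusted p = 0.035).

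Among 18780 other named genes with a mean of 1 CPM or more, the 6 whose log2 CPM over the 18 libraries was most like the mean of the type-A members had correlations of 0.970 to 0.981. This is a description, since the libraries share medium and time. They were (R)-mandelonitrile lyase 3 (DVH24_002314, r = 0.981), Cytochrome P450 724B1 (DVH24_028002), the cytokinin-activating enzyme LOG3 (DVH24_001501), IQ-DOMAIN 29 (DVH24_007142), palmitoyl-monogalactosyldiacylglycerol delta-7 desaturase (DVH24_032387) and the cytokinin receptor Histidine kinase 4 (DVH24_040279). Histidine kinase 4 stood at 62.9 ± 15.4 CPM on TDZ, 35.2 ± 4.1 CPM on BAR and 18.9 ± 8.6 CPM on control medium at 48 hour, and at 4 week at 61.39, 55.62 and 1.35 CPM in the TDZ libraries, 1.03 ± 0.49 CPM on BAR and 0.331 ± 0.293 CPM on control medium. LOG3 stood at 3.59 ± 1.71 CPM on TDZ, 4.02 ± 2.57 CPM on BAR and 1.303 ± 0.674 CPM on control medium at 48 hour. IQ-DOMAIN 29 had the narrowest range of the 6, at 46.4 ± 3.7 CPM on TDZ, 39.0 ± 0.8 CPM on BAR and 35.1 ± 2.4 CPM on control medium at 48 hour.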

How the data were processed

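Poly(A) RNA of 18 libraries was analysed from the deposited count table, whole-number counts per gene, and from the deposited FPKM table, in which the authors divided counts by coding length and library size. Its values equal CPM per kilobase times 1 factor per library, whose origin is not given in the sources used here. Per the submitters' processing notes, CASAVA, HISAT2 2.0.5 and featureCounts 1.5.0-p3 were used. No source used here gives the genome build or the strand setting, and positions are left out. Of the gene identifiers 0 were found in the reference gene table, so names are the Swiss-Prot matches in the deposited table.

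Counts were tested with edgeR 4.0.16 in R 4.3.3 (quasi-likelihood, TMM scaling, filterByExpr with a minimum count of 10 and a minimum total of 15) in 1 fit of 18 libraries and 6 groups. A gene was called at a Benjamini-Hochberg adjusted p under 0.05 over all genes tested. Intervals are 95%. Against a group without counts a lower bound of the fold was computed from 3 counts in the whole group, which covers counting error only, and no fold is given where both groups had none. The steps were tested on simulated data with less spread between replicates than these libraries and no library set apart. That test covers the working of the steps, not their power in these data. Alternatives were DESeq2 1.42.0, RLE scaling, no filter, the 9 libraries of the same time, libraries with names ending in b summed with replicate 1, the replicate number as a block, and each library left out. The fit of 8 libraries of 4 week was added after seeing the data.

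Named were all members, the 2 most abundant genes of each pathway list and the 6 genes most like the members. Members, lists and fits were chosen with earlier results of these data known. Same-numbered replicates did not deviate together, so numbers were not taken as pairs.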

Additional observations from a re-analysis of the deposited data

Results flagged for a closer look

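For 2 of 10 members the effect of TDZ differed between the times by the test of the difference itself, where 5.44% of all genes were called higher. The count was 7 without TDZ replicate 3 of 4 week, where 15.9% of genes were, and 4 without control replicate 1 of 4 week. With any other library left out it was 0 or 1. The TDZ effect on ARR6 (DVH24_008781) was larger at 4 week than at 48 hour by 5.84 on the log2 scale (SE 1.36, adjusted p = 0.027 by edgeR). ARR6 was at 135, 114 and 1.03 CPM in the TDZ libraries and 0.559 ± 0.490 CPM on control medium at 4 week (SD, n = 3). The TDZ effect on ARR9 (DVH24_019719) was larger by 4.39 (SE 1.26, adjusted p = 0.046). ARR9 was at 35.2, 43.9 and 0.644 CPM in the TDZ libraries and 0.511 ± 0.471 CPM on control medium at 4 week. With TDZ replicate 3 of 4 week dropped, the differences were 6.44 and 4.95. Beside them, both control groups differed: ARR6 was at 0.559 CPM in the controls of 4 week and 32.3 CPM in those of 48 hour, and ARR9 at 0.511 CPM and 11.6 CPM.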

How the results depend on the processing

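Of 623 values under other settings than the one reported, 569 were classed as the same, and so were 1807 of 1944 with 1 library left out. A fold change classed so kept its direction and side of the threshold. A count of called members classed so could still shift a little. An example is the change from 2 to 3 for BAR against control at 4 week with DESeq2. With the 9 libraries of the same time the members called were 6 for TDZ against control at 48 hour, 2 for BAR against control, 1 for TDZ against BAR, and 3, 0 and 0 in the same comparisons at 4 week, where 2 members fell under the filter. Of all genes, 0.17%, 0.0162% and 0.0284% were called higher in these comparisons at 48 hour, and 3.67%, 9.4% and 0.25% at 4 week. With 8 libraries of 4 week, chosen after seeing the data, BAR against control called 4, where 5069 of 25881 genes were called higher. DESeq2 called 2 for TDZ against control at 48 hour, 4 for the TDZ effect over time and 1 for the BAR effect. With the b libraries summed the counts were 1 and 4 for TDZ against control at 48 hour and BAR against control at 4 week, and 4 and 2 for the TDZ and BAR effects over time. With the replicate block, the replicate number as a term, TDZ against BAR at 4 week called 4 and the TDZ effect over time 1. The share of all genes called is not given for DESeq2, the b libraries summed or the replicate block. It is given for a single library left out only where that was TDZ replicate 3 of 4 week. Counts without a share cannot be set against all genes. Same-numbered libraries correlated in their deviations at -0.221 to 0.297, and 10 of 45 correlated best with their own number, so the numbers did not pair the samples. With each library left out in turn the counts ran from 0 to 3 for TDZ against control, 0 to 1 for BAR against control and 0 to 1 for TDZ against BAR at 48 hour. At 4 week they ran from 1 to 5 for BAR against control and 0 to 9 for TDZ against BAR. Over time they ran from 5 to 9 on BAR, 4 to 8 on control medium, 0 to 7 for the TDZ effect and 0 to 4 for the BAR effect. Changes of sign were all among values that had not passed. For TDZ at 4 week against 48 hour, ARR9 was at 0.018 (DESeq2), 0.021 (RLE scaling), 0.037 (no filter) and 0.26 (b libraries summed), and from -0.58 to 0.56 with libraries left out. In that comparison ARR6 was at 0.12 and ORR4 DVH24_006913 at 0.014 with the b libraries summed, and with libraries left out ARR6 ran from -0.60 to 0.50, ORR4 DVH24_006913 from -1.01 to 0.28, ORR4 DVH24_042790 from -0.86 to 0.30 and ARR17 DVH24_022837 from -1.36 to 0.21. For TDZ against BAR at 48 hour, ARR9 ran from -0.010 to 0.26, ORR9 from -0.14 to 0.054 and ORR10 from -0.51 to 0.018, and at 4 week ORR9 ran from -0.094 to 0.45. For BAR against control at 4 week, ARR3 DVH24_007079 ran from -0.032 to 0.57, ORR9 from -0.011 to 0.92 and ORR10 from -0.18 to 1.33. The BAR effect over time ran from -0.50 to 0.43 for ORR9 and from -1.36 to 0.15 for ORR10, and the TDZ effect on ORR9 from -0.33 to 0.61, and was at 0.016 with no filter. Among the ranges of counts, the highest came with TDZ replicate 3 of 4 week left out, and over time on BAR and on control medium equally with control replicate 1 of 4 week left out. The cause of these changes was not tested. Counts of low members, such as the 244 of ARR17 DVH24_022837 over 18 libraries, limit the precision of their fold changes.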
